A study of Mus musculus with 3 samples.

Results

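The 10 genes described here encode the CD3 chains of the T cell receptor complex and markers carried by T cells: Cd3d, Cd3e, Cd3g, Cd247, Cd4, Cd8a, Cd2, Cd5, Lck and Foxp3. They were measured in the utero-tubular junction, the narrow passage where the uterus meets the oviduct and through which sperm must pass. The genes were chosen by name. Every non-control probe that carries one of these names was taken, which gave 16 of 41174 probes, printed on 34 of 43379 spots, for 10 of 27671 genes. Another probe, named 4930549J05Rik, is listed by RefSeq under a synonym of Cd247. It was not well above background on any array and was not counted as a member.

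The females were adults of the outbred CD-1 stock, all in estrus, and differed by mating: not mated, mated with a vasectomized male, whose ejaculate lacks sperm, or mated with a normal male. Each state was 1 pool of total RNA from 10 females on 1 single-colour array labelled with Cy3. With 1 array per state there is no spread between samples and no test. What belongs to the mating and what belongs to the array or pool cannot be told apart. The sources used here do not say how long after mating the tissue was taken.

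A T cell recognises antigen through a receptor made of an alpha and a beta chain, or a gamma and a delta chain, which has no signalling tail of its own. The receptor travels to the surface with CD3 gamma, delta and epsilon chains and a pair of zeta chains encoded by Cd247, and their tails are phosphorylated by the kinase Lck, which is carried by the co-receptors CD4 and CD8. In the female tract, T cells lie within and under the epithelium beside natural killer (NK) cells and macrophages. Several of the 10 genes are not exclusive to T cells: Cd247, Cd2 and Lck are also used by NK cells, Cd5 by a subset of B cells, Cd4 by some macrophages, and Cd8a by some dendritic cells.

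The share of probes well above background was 68.0% in the not mated, 65.9% in the vasectomized-mated and 70.7% in the normal-mated pool, and no spot was saturated. The arrays differed in brightness: the 75th percentile of their signals was 874, 295 and 708 in the same order. A level below is therefore log2 of the signal minus log2 of that percentile, and 2 equal signals on the not mated and vasectomized-mated arrays stand for a higher level on the latter. The faintest signal well above background was 13.2, 5.80 and 6.59. All 10 epithelial and all 11 stromal and smooth muscle markers examined were well above background on every array, and these are cell types of the labelled tissue. Of the 10 T cell genes, 8, 8 and 7 were well above background, 6 of them on all 3 arrays and 9 on at least 1.

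The CD3 gamma, delta and epsilon genes lie together on chromosome 9, where Cd3g and Cd3d are neighbours read in opposite directions. The 250 bases before each start are shown because the 3 chains share 1 complex and had unlike values on these arrays. They are RefSeq sequences in the assembly GRCm38.p6, 5′ to 3′ along each gene's own strand, with capitals marking the motifs searched on both strands. RUNX factors were searched for by the letters TGTGGT. TCF and LEF factors were searched for by CTTTGA, and GATA factors by AGATAA. The E-box was searched for by CAGGTG.
Cd3d, chr9:44981536-44981785, plus strand: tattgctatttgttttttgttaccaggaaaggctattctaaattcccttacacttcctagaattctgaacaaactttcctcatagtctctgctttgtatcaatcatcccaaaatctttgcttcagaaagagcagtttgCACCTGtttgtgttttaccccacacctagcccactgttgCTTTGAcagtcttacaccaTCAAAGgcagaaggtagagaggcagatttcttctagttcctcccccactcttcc
Cd3g, chr9:44980432-44980681, minus strand: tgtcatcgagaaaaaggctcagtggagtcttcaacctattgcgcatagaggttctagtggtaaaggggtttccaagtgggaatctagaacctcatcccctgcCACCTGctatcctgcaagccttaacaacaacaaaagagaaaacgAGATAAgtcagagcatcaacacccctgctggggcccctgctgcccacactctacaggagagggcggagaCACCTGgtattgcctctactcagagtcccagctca
Cd3e, chr9:45009612-45009861, minus strand: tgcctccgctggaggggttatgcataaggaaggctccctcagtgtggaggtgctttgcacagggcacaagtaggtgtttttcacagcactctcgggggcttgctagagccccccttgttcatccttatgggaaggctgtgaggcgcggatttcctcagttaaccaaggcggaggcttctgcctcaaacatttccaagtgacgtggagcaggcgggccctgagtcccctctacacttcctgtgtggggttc
The Cd3d window holds CTTTGA letters at -73 and -54 from the start and the E-box at -112. The Cd3g window holds the GATA letters at -104 and the E-box at -148 and -35, and the Cd3e window holds none of the 4. Across 32851 promoter windows of this length, CTTTGA was present in 13.8%, AGATAA in 9.99%, CAGGTG in 17.2% and TGTGGT in 14.0%. RefSeq windows were found for 8 of the 10 genes. Of the others, Cd247 held the E-box at -10, Cd5 at -174 and -69, and Lck at -63 in 1 of its 2 windows and TGTGGT at -58 in the other. Foxp3 held AGATAA at -47 in 1 of 2 windows, and Cd8a held none. A match describes letters only and does not show binding.

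Cd3d, the CD3 delta chain, is read by 1 probe, at chr9:44920433-44920664 on the plus strand of mm7, the build of the array's coordinates. No annotation of that build was used here, so exons and UTRs are not named for any probe. Its signal was 88.1 ± 9.21 in the not mated, 87.6 ± 8.83 in the vasectomized-mated and 38.0 ± 4.02 in the normal-mated pool, where ± is the scanner software's own error for the spot and covers neither animals nor pools. The corresponding levels were -3.31, -1.75 and -4.22. The vasectomized-mated pool was therefore highest and the normal-mated pool lowest. Against the not mated pool Cd3d was 2.95-fold higher after mating with a vasectomized male (log2 ratio 1.56, software error 0.21) and 1.88-fold lower after mating with a normal male (-0.91, error 0.21). Between both mated pools the gap was 5.54-fold, with the normal-mated pool lower.

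Cd3g, the CD3 gamma chain, is read by 1 probe at chr9:44907978-44908562 on the minus strand of mm7. Its signal was 79.8 ± 8.50 in the not mated pool, 18.6 ± 2.30 in the vasectomized-mated pool and 10.6 ± 1.79 in the normal-mated pool, and its levels were -3.45, -3.99 and -6.07. The normal-mated pool was lowest, 6.12-fold below the not mated pool (log2 ratio -2.61, error 0.29) and 4.23-fold below the vasectomized-mated pool (-2.08, error 0.30). The vasectomized-mated and not mated pools differed by 1.45-fold (-0.53, error 0.24), and the sign of that ratio turned to 0.52 with normexp, a model-based background correction applied to the raw spot signals.

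Cd3e, the CD3 epsilon chain, which pairs with both other chains, showed neither pattern. The brighter of its 2 probes, at chr9:44933516-44933575 on the minus strand of mm7, gave 24.5 ± 3.69, 8.04 ± 1.47 and 20.0 ± 2.42 in the not mated, vasectomized-mated and normal-mated pools. After scaling, its levels were -5.16, -5.20 and -5.15, so the 3 pools lay within less than the software error of each other (ratios between -0.04 and 0.05, errors 0.28 to 0.34). The ratio after vasectomized mating became 1.03 with normexp. The other Cd3e probe was not well above background on any array, with signals of 2.99, 2.70 and 1.71.

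Cd247, the zeta chain, which carries most of the phosphorylation sites of the complex, is listed on 3 probes. The brightest, at chr1:165832436-165832495 on the plus strand of mm7, gave signals of 45.0 ± 5.55, 32.6 ± 3.63 and 39.9 ± 4.32 and levels of -4.28, -3.18 and -4.15 in the not mated, vasectomized-mated and normal-mated pools. The vasectomized-mated pool stood above both others, 2.14-fold over the not mated pool (log2 ratio 1.10, error 0.24) and 1.96-fold over the normal-mated pool. The normal-mated and not mated pools were alike within the error (0.13, error 0.24). The remaining pair of probes was not well above background on any array, and averaging all 3 probes brought the ratio after vasectomized mating to 0.09.

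**Figure D1:**
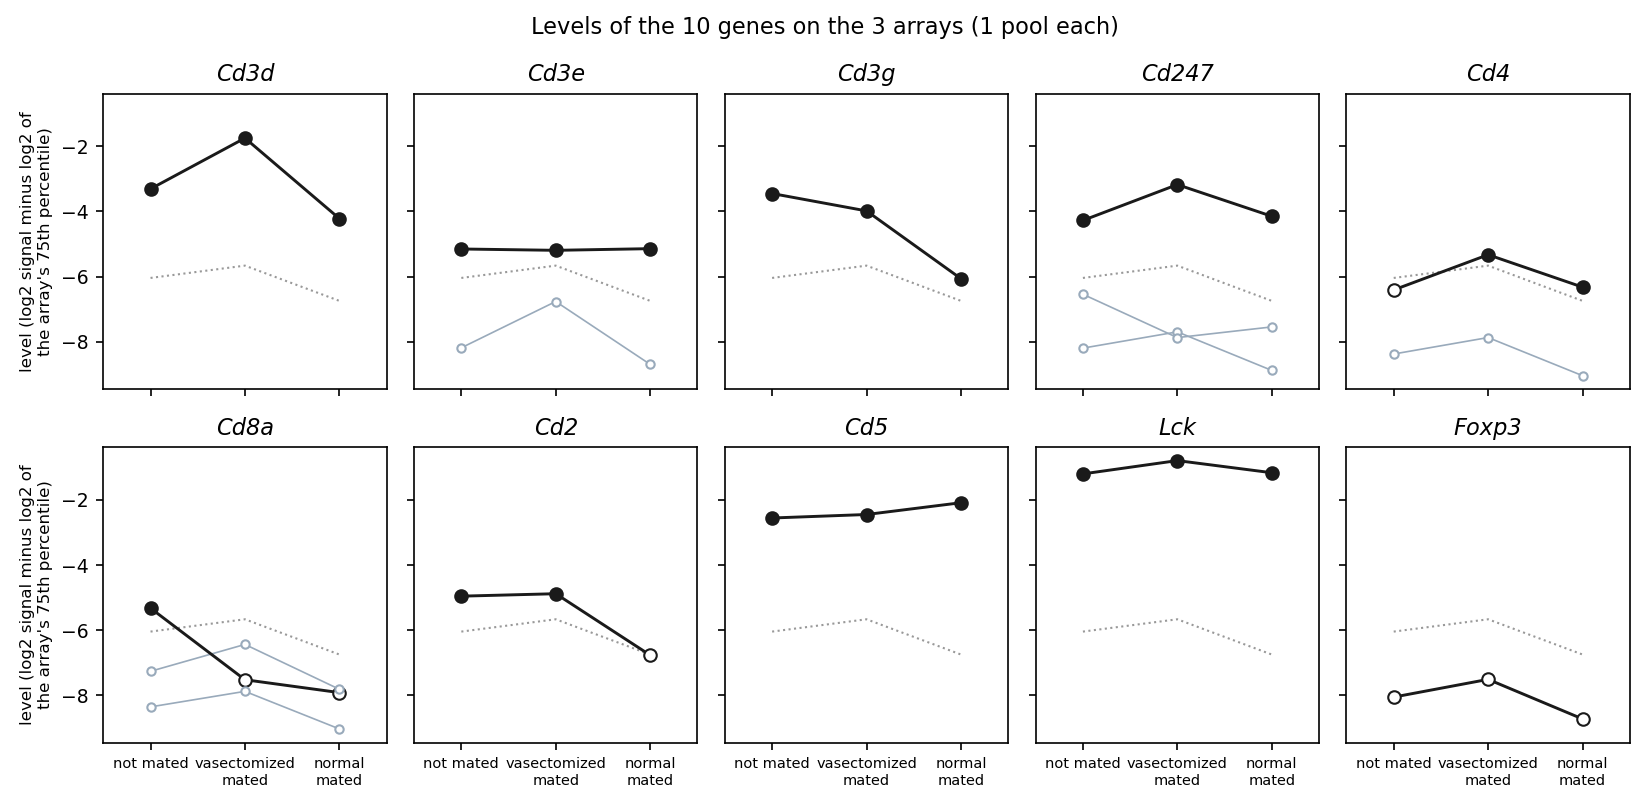
Level of every probe of the 10 genes (vertical axis, log2 signal minus log2 of the array's 75th percentile) in the not mated, vasectomized-mated and normal-mated pools (horizontal axis, 1 array each). Black is the probe used for the gene, grey-blue its other probes, filled points are well above background, open points are not, and the dotted line is the lowest level well above background; Cd3d peaks at -1.75 after vasectomized mating, Cd3g is lowest at -6.07 after normal mating, and Cd3e stays between -5.20 and -5.15.

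Lck, the kinase that starts receptor signalling, is read at chr4:128993249-128993308 on the minus strand of mm7. It gave 379.9 ± 38.1, 170.0 ± 17.1 and 316 ± 31.6 in the not mated, vasectomized-mated and normal-mated pools, or levels of -1.20, -0.79 and -1.17. The normal-mated and not mated pools were alike within the error (log2 ratio 0.04, error 0.20), and the vasectomized-mated pool was above the not mated pool by 0.41 and above the normal-mated pool by 0.37 on the log2 scale. Each difference was under 2-fold.

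Cd5, a surface protein that dampens receptor signalling, is read by a probe at chr19:10398252-10398270 on the minus strand of mm7. Its signals were 149 ± 15.2, 54.0 ± 5.59 and 167 ± 16.7 and its levels -2.56, -2.45 and -2.09. The normal-mated pool was highest, by 0.47 over the not mated pool (error 0.21), which is under 2-fold, and the not mated and vasectomized-mated pools differed by 0.11, which is less than the error of a single ratio here.

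Cd2, an adhesion receptor that binds CD48 on other leukocytes, is read by a probe spanning chr3:101074696-101077875 on the minus strand of mm7. Its signals were 28.2 ± 3.94, 9.997 ± 1.62 and 6.50 ± 1.54, and the last of these, in the normal-mated pool, was not well above background. The levels were -4.96, -4.88 and -6.77. The not mated and vasectomized-mated pools differed by 0.07 on the log2 scale (error 0.31). In the normal-mated pool only a bound can be given: Cd2 was at least 3.46-fold lower than in the not mated pool and at least 3.65-fold lower than in the vasectomized-mated pool. Such a bound sets the brighter pool against the higher of the faintest level well above background on the dim array and the dim probe's own level.

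Cd4, the co-receptor of helper T cells, is read on 10 spots by a probe at chr6:124894079-124894138 on the minus strand of mm7. Its mean signal was 10.3 in the not mated pool, where 0 of 9 spots were well above background, 7.32 in the vasectomized-mated pool, with 7 of 10 spots, and 8.83 in the normal-mated pool, with 9 of 10. The tenth spot of the not mated array read 114.6 and was left out because the software marks it as an outlier. Mean levels over the spots were -6.41 ± 0.383 (SD, 9 spots), -5.33 ± 0.373 (10 spots) and -6.33 ± 0.313 (10 spots). These are repeat readings of 1 pool, not replicates of a state. Single spots ranged from -7.11 to -5.93 in the not mated pool, from -5.79 to -4.65 in the vasectomized-mated pool and from -6.82 to -5.84 in the normal-mated pool. After scaling, the vasectomized-mated readings thus lay above all those kept on both other arrays, at the closest -5.79 against -5.84. The not mated and normal-mated readings overlapped. Before scaling the mean signal was lowest in the vasectomized-mated pool. How many of the 245 probes with repeated spots lie apart between arrays in this way was not counted. As a bound, Cd4 was at least 1.64-fold higher after vasectomized mating than in the not mated pool, and it was 1.99-fold lower in the normal-mated than in the vasectomized-mated pool. The not mated and normal-mated pools could not be compared. The other Cd4 probe, at 2.62, 1.26 and 1.34, was not well above background on any array.

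Cd8a, the alpha chain of the co-receptor of cytotoxic T cells, was well above background in the not mated pool alone, and there on 1 of its 3 probes. That probe, at chr6:71395267-71395326 on the plus strand of mm7, gave 21.8 ± 3.96 in the not mated pool against 1.60 and 2.93 in the vasectomized-mated and normal-mated pools. Cd8a was therefore at least 2.68-fold lower after normal mating and at least 1.27-fold lower after vasectomized mating. A probe printed on 10 spots did not show that order. It lies further along the gene, at chr6:71396848-71396907, and gave mean signals of 5.69, 3.40 and 3.15, with levels from -8.08 to -6.54 over the spots of the not mated pool, -7.66 to -5.47 for the vasectomized-mated and -8.93 to -6.32 for the normal-mated pool. Its readings overlapped between all 3 pools, and 0 of 10, 0 of 9 and 2 of 10 spots were well above background. The lower Cd8a values after mating thus rest on 1 spot per array. Cd8b1, the beta chain that pairs with the alpha chain on cytotoxic T cells, was chosen for mention after its values were seen: it was well above background on every array, at levels of 0.45, -0.08 and 0.21, with no difference of 2-fold. In the not mated pool that level stood far above those of Cd8a (-5.3) and Cd3d (-3.31). Whether the Cd8b1 signal comes from T cells was not tested.

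Foxp3, the transcription factor that defines regulatory T cells, was not well above background on any array. Its probe, at chrX:6028182-6028241 on the plus strand of mm7, gave signals of 3.29, 1.62 and 1.67, so no comparison was made.

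**Figure D2:**
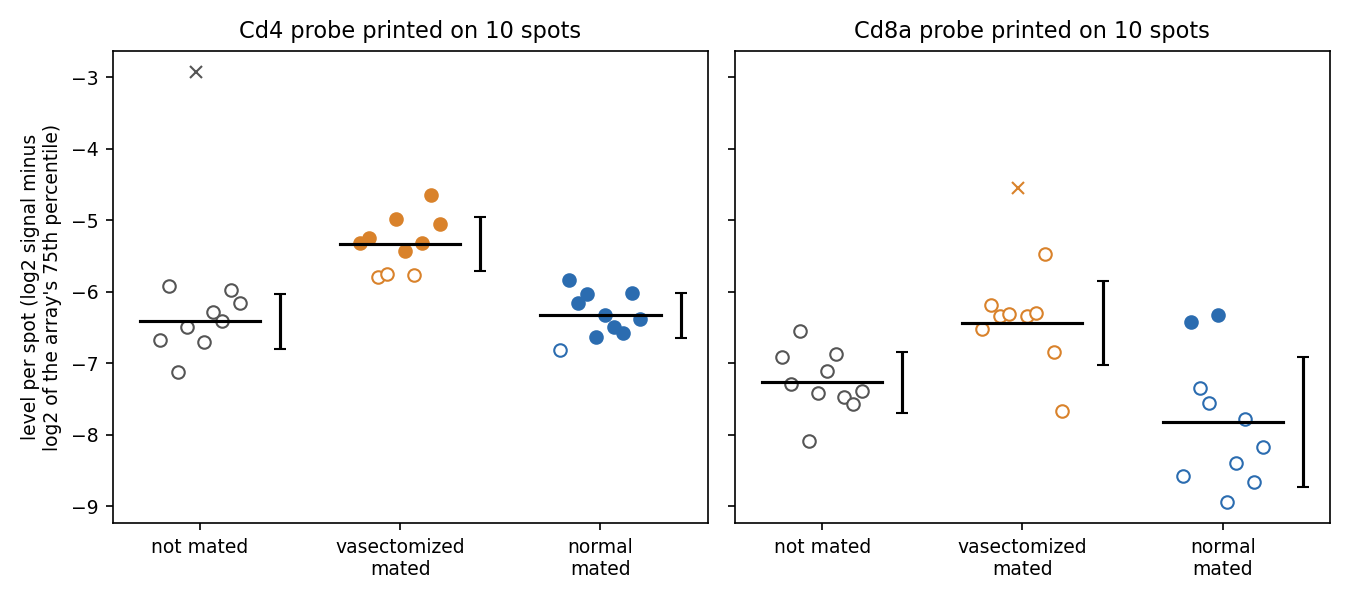
Level of each spot (vertical axis, log2 signal minus log2 of the array's 75th percentile) of the Cd4 probe, left, and the Cd8a probe, right, that are printed 10 times on each array (horizontal axis, 1 pool per array). Filled points are well above background, open points are not, crosses are outlier spots left out, and bars are the mean and SD over spots. After scaling, the Cd4 spots of the vasectomized-mated array lie between -5.79 and -4.65, above the spots kept on both other arrays. The Cd8a spots overlap. How many other probes with repeated spots lie apart in this way was not counted.

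After mating with a normal male, 8 of the 10 genes could be compared with the not mated pool, 6 as measured ratios and 2 as bounds. The 3 lower by at least 2-fold were Cd3g, Cd2 and Cd8a, 0 were higher, and 5 were within 2-fold (Cd3d, Cd3e, Cd247, Cd5 and Lck). That is 37.5% of those compared, against 13.2% of 19303 genes lower and 9.81% higher across the array. The median of the measured ratios was 0.02, and -0.45 with the bounds included, against -0.06 over all genes. The Cd2 and Cd8a differences are bounds on faint spots. With normexp, run with an offset of 50, 0 of the genes reached 2-fold: Cd3g came to -0.73, Cd2 to -0.20 and Cd8a to -0.05.

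After mating with a vasectomized male, 9 genes could be compared, 7 of them as measured ratios. Cd3d and Cd247 were at least 2-fold higher, 0 were lower and 7 were within 2-fold. The 22.2% that were higher stand against 25.8% of 19306 genes higher and 16.5% lower, so the share among the 10 genes was no larger than on the array as a whole. The median ratio was 0.11, against 0.18 over all genes. Cd3d was at least 2-fold higher under each of 8 other settings, between 1.39 and 1.73. Cd247 was so under 6 of the 8. Both comparisons use the same not mated array.

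The mated pools were set against each other directly, normal against vasectomized mating. Cd3d, Cd3g and Cd2 were at least 2-fold lower in the normal-mated pool, 0 of 8 genes were higher, and Cd247 and Cd4 lay just short of 2-fold at -0.97 and -0.99. The share lower, 37.5%, stands against 28.0% of 18988 genes lower and 14.7% higher, and the median of -0.97 against -0.28. Under the other settings Cd3d stayed between -2.47 and -1.83 and Cd3g between -2.08 and -1.25. In a bulk extract, fewer T cells and less of each transcript per T cell cannot be told apart in any of these comparisons.

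**Figure D3:**
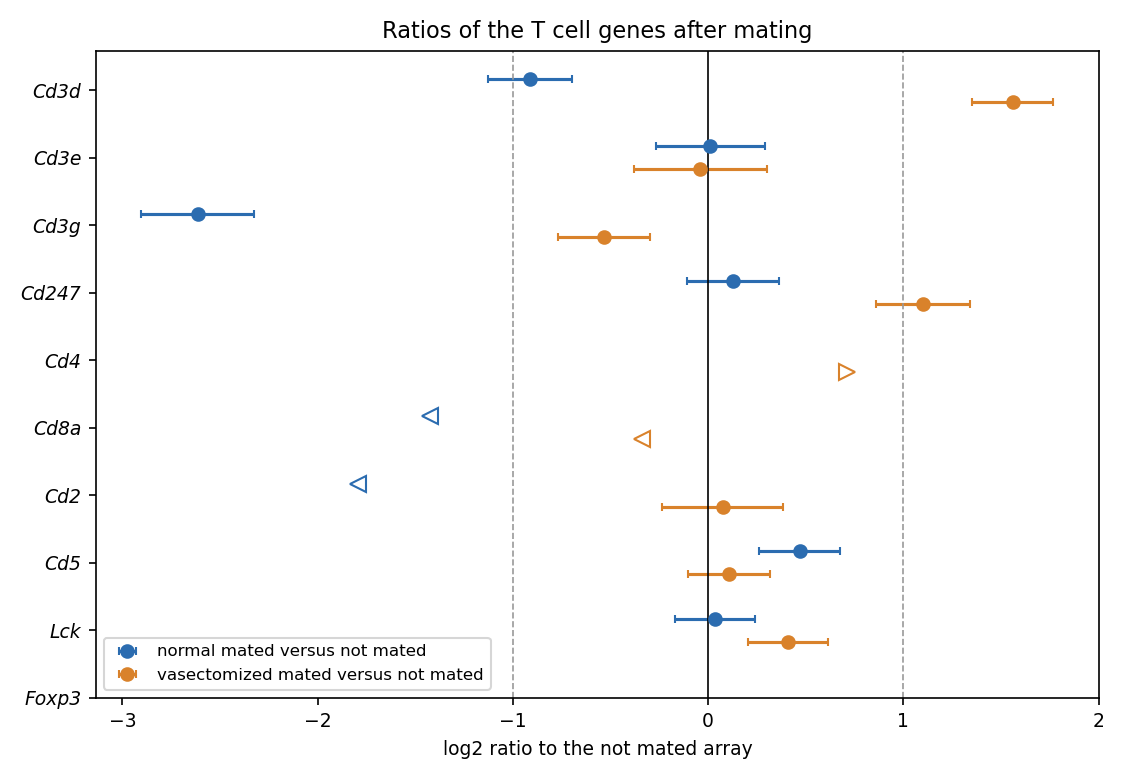
Log2 ratio of each gene to the not mated array (horizontal axis) after normal mating, blue, and vasectomized mating, orange, with bars for the scanner software's error where the probe has 1 spot. Open triangles are bounds that point away from 0, dashed lines mark 2-fold, and Foxp3 has no ratio; Cd3d lies at -0.91 and 1.56, Cd3g at -2.61 and -0.53, and Cd3e within 0.05 of 0 in both.

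The antigen-binding chains of the receptor, named on this array by older symbols, could be compared for 3 of 5 names. Tcrg, a gamma chain name, had signals of 70.7, 49.8 and 21.3 in the not mated, vasectomized-mated and normal-mated pools. It was lower after normal mating by 1.43 on the log2 scale and higher after vasectomized mating by 1.06. Tcra, an alpha chain name, gave 59.0, 18.9 and 23.7 on its brightest probe, with log2 ratios to the not mated pool of -1.01 after normal and -0.07 after vasectomized mating. A Tcra probe printed on 10 spots was lower in both mated pools, by 1.20 on the log2 scale after normal mating. After vasectomized mating only a bound can be given for it, at least 1.755-fold lower, with 3 spots well above background. Tcrb-V13, a beta chain name that RefSeq lists as a synonym of Trbv14, had 3 probes well above background on all arrays. Their signals were 147, 62.3 and 32.6 on the first, 323, 147 and 79.6 on the second and 269, 136 and 95.9 on the third. All 3 were lower after normal mating, with log2 ratios of -1.87, -1.72 and -1.18, and within 2-fold after vasectomized mating, at 0.33, 0.43 and 0.59. Variable and constant segments of these families are alike in sequence, so which segments a probe reads is uncertain. All 3 names were lower by at least 2-fold after normal mating, where 13.2% of all genes were. Their median was -1.43, against -0.06 over all genes. The count was 2 with quantile or cyclic loess normalization, 1 with normexp and 0 when all probes of a name were averaged. Of all genes, 10.6%, 9.9%, 4.72% and 12.8% were lower under these settings in turn.

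**Figure D4:**
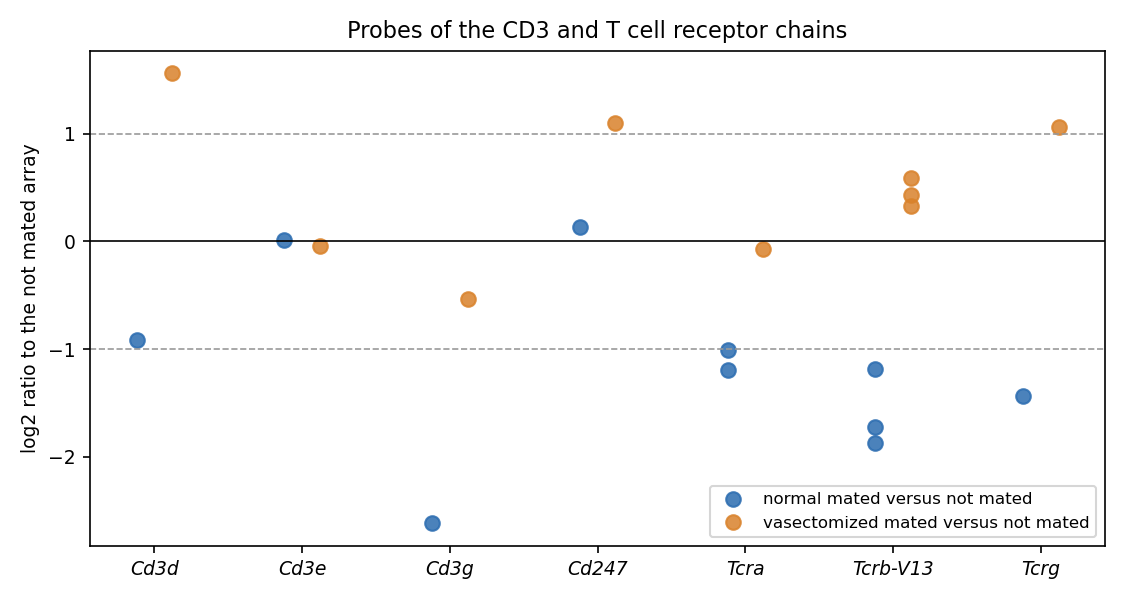
Log2 ratio to the not mated array (vertical axis) of each probe measured on both arrays for the CD3, zeta and antigen-binding chains (horizontal axis), after normal mating, blue, and vasectomized mating, orange, with dashed lines at 2-fold. The Tcra, Tcrb-V13 and Tcrg probes lie between -1.87 and -1.01 after normal mating and between -0.07 and 1.06 after vasectomized mating, while Cd3e and Cd247 lie near 0 after normal mating. The Tcra probe printed on 10 spots is a bound after vasectomized mating, at least 1.755-fold lower, and is not drawn there.

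Of 26 genes that act just below the receptor, 23 could be compared after normal mating, 22 as measured ratios with a median of -0.42 on the log2 scale. By at least 2-fold 1 was higher (4.35%, against 9.81% of all genes) and 7 were lower (30.4%, against 13.2%). But with normexp 1 was higher and 2 were lower, where 6.94% of all genes were higher and 4.72% lower. Among the largest differences were those of Fyb, an adaptor that links the receptor to integrins (2.09), and of the kinases Txk (-1.69) and Fyn (-1.56). After vasectomized mating 7 of 23 were higher (30.4%, against 25.8% of all genes) and 5 lower (21.7%, against 16.5%), with a median of 0.26. The largest ratios were those of the adaptor Lat (3.36), the phosphatase Ptprc, also known as CD45 (2.90), Fyb (2.63) and Sla2 (2.10). Ptprc has 4 probes, and its other probes gave no measured ratio after vasectomized mating. Its measured probes ranged from -2.03 to -0.83 after normal mating. A further Ptprc probe was thus well above background in the not mated and normal-mated pools but not in the vasectomized-mated pool. The kinase Zap70, which docks on phosphorylated zeta chains, was named after its values were seen: it was within 2-fold in both comparisons, at 0.53 and 0.20.

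Among co-receptors and co-stimulatory receptors, 2 were higher (14.3%) and 6 lower (42.9%) of 14 compared after normal mating. With normexp 1 was higher and 1 lower of 14 after normal mating. After vasectomized mating 7 were higher (46.7%) and 2 lower (13.3%) of 15. For this list and those below, the shares over all genes were 9.81% higher and 13.2% lower after normal mating. They were 25.8% higher and 16.5% lower after vasectomized mating. The inhibitory receptor Pdcd1 was higher in both, at 2.32 and 4.95, as was Tnfrsf9 (4-1BB), at 1.59 and 3.00. After normal mating Sh2d1a, an adaptor of the SLAM receptors, stood at -1.53 and Havcr2 at -1.52. After vasectomized mating Cd7 was at 2.08 and Tnfrsf4 (OX40) at 1.58. Of 15 transcription factors of the T lineage, 0 were higher and 7 lower (46.7%) after normal mating, with a median of -0.93. After vasectomized mating 3 were higher (20.0%) and 5 lower (33.3%). Lef1 was lower in both, at -2.94 and -2.69, and Bach2 and Ets1 stood at -1.87 and -1.59 after normal mating, with Tox at -2.11. The measured probes of Ets1 ranged from -1.59 to -0.50. After vasectomized mating the helper cell regulators Gata3 and Tbx21 were higher, at 2.39 and 1.79, and Tcf7 was lower, at -1.39. With normexp 3 factors rather than 7 were at least 2-fold lower after normal mating, and 1 rather than 5 after vasectomized mating. Lef1, Ets1 and Gata3 are also made by cells other than T cells.

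Markers of regulatory T cells other than Foxp3 gave few differences after normal mating: 0 of 11 were higher and 1 was lower, Gpr83 at -2.47. After vasectomized mating 4 were higher (36.4%) and 2 lower (18.2%), against 25.8% and 16.5% of all genes. The 2 lower were Gpr83 (-2.15) and Tgfb1 (-1.28), and Nrp1 (1.65) and Ebi3 (1.32) were among the higher. The measured probes ranged from -2.15 to -0.37 for Gpr83 and from -1.075 to 1.65 for Nrp1. Of the 15 genes of this list on the array, 10, 11 and 11 were well above background in the not mated, vasectomized-mated and normal-mated pools. Il2ra, Ccr4, Ccr8 and Il10, and Ctla4 from the co-receptor list, were not well above background on any array. These genes also mark regulatory T cells and were named after their values were seen. Among genes of naive and recirculating T cells, 2 were higher and 4 lower of 8 after normal mating, with Ms4a4b at -2.13, S1pr1 at -2.01 and Dapl1 at -1.12. The 4 lower became 2 with normexp. After vasectomized mating 3 were higher (37.5%) and 0 lower, against 25.8% and 16.5% of all genes. Of the T cell cytokines and their receptors, 10 of 18 could be compared: 1 was higher and 5 were lower after normal mating, among them Il2rb, a receptor chain for IL-2 and IL-15 (-2.53), Il1rl1 (-1.82), Ifng (-1.24) and Il17f (-1.12). The 5 lower became 2 with quantile or cyclic loess normalization and 1 with normexp. After vasectomized mating 1 was higher and 1 lower.

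Chemokines that attract T cells and their receptors formed another list. After vasectomized mating 7 of 14 were higher and 0 lower, with a median of 1.06, led by Ccl20 (4.42), Cxcl10 (3.12), the receptor Cxcr4 (2.88) and Cxcl9 (2.40). The probes of Cxcr4 disagreed, and its other probe stood at -1.31. After normal mating 5 were higher and 5 lower of 15: Cxcl16 (2.89) and Cxcl10 (2.12) were among the higher, and Xcl1 (-3.50), which NK and cytotoxic T cells release, and Cxcl12 (-2.56) among the lower. Against the vasectomized-mated pool, 12 of 15 were lower in the normal-mated pool and 0 higher, where 28.0% of all genes were lower. With quantile normalization 10 were lower and 1 was higher. On the side of the cells that T cells read, the MHC class II genes H2-Aa, H2-Eb1 and H2-Ab1, whose products CD4 binds, were lower after normal mating at -1.94, -1.77 and -1.42, and the class I gene H2-K1, whose product CD8 binds, was higher at 1.28. That list held 2 higher and 5 lower of 11 after normal mating and 1 higher and 4 lower after vasectomized mating. H2-Aa, H2-Eb1 and H2-Ab1 were also lower after vasectomized mating, at -2.59, -1.72 and -1.08, with H2-K1 at 0.32. The probes of H2-Aa disagreed there, from -2.59 to -0.006, as did those of H2-K1, from -1.27 to 0.32.

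Markers of other cell types differed too, and their part in the T cell values was not tested. Of 13 NK cell markers compared after normal mating, 8 were lower (61.5%, against 13.2% of all genes) and 1 higher, with a median of -2.01. With normexp 5 were lower, with a median of -0.92. Gzmb (-3.46), Nkg7 (-3.08) and Prf1 (-2.65), which cytotoxic T cells also use, and Klrd1 (-2.07) had the largest measured ratios. Ncr1, a receptor largely restricted to NK cells and related lymphocytes, was named after its values were seen. As a bound, Ncr1 was at least 8.63-fold lower. Over the NK markers well above background on at least 1 array, the median level was -1.99 in the not mated, -2.50 in the vasectomized-mated and -4.05 in the normal-mated pool, with 13, 12 and 11 of 15 well above background. Over the same pools the median level of the 9 T cell genes other than Foxp3 was -4.28, -3.99 and -5.15. After vasectomized mating 4 NK markers were higher (30.8%, against 25.8% of all genes) and 3 lower (23.1%, against 16.5%), with a median of 0.09. The 3 lower were again Gzmb (-2.52), Nkg7 (-1.79) and Prf1 (-1.55). Among the higher were Klra8 (2.95), Cd244a (2.79) and Klrd1 (2.10), and the measured probes of Cd244a ranged from 0.43 to 2.79. Eomes stands in both the NK and the transcription factor lists.

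Of the genes that all leukocytes share, 1 was higher and 4 were lower (26.7%, against 13.2% of all genes) of 15 compared after normal mating. Their median was -0.19. After vasectomized mating 3 were higher and 3 lower (20.0% each, against 25.8% and 16.5%), with a median of 0.15. With normexp 0 were lower in either comparison. Neutrophil markers were higher in both mated pools, 8 of 9 in each, and endothelial markers lower, 8 of 8 after normal mating and 5 of 8 after vasectomized mating. Stromal and smooth muscle markers had a median of -1.19 after normal mating and -0.04 after vasectomized mating, and epithelial markers of 1.11 and -0.26. With quantile normalization the medians after vasectomized mating were -0.89 and -0.95. Macrophage markers had medians of -0.77 and 1.14, dendritic cell markers of -0.16 and 0.36, B cell markers of 0.18 and 1.84, and mast cell markers of -2.49 and -1.16.

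**Figure D5:**
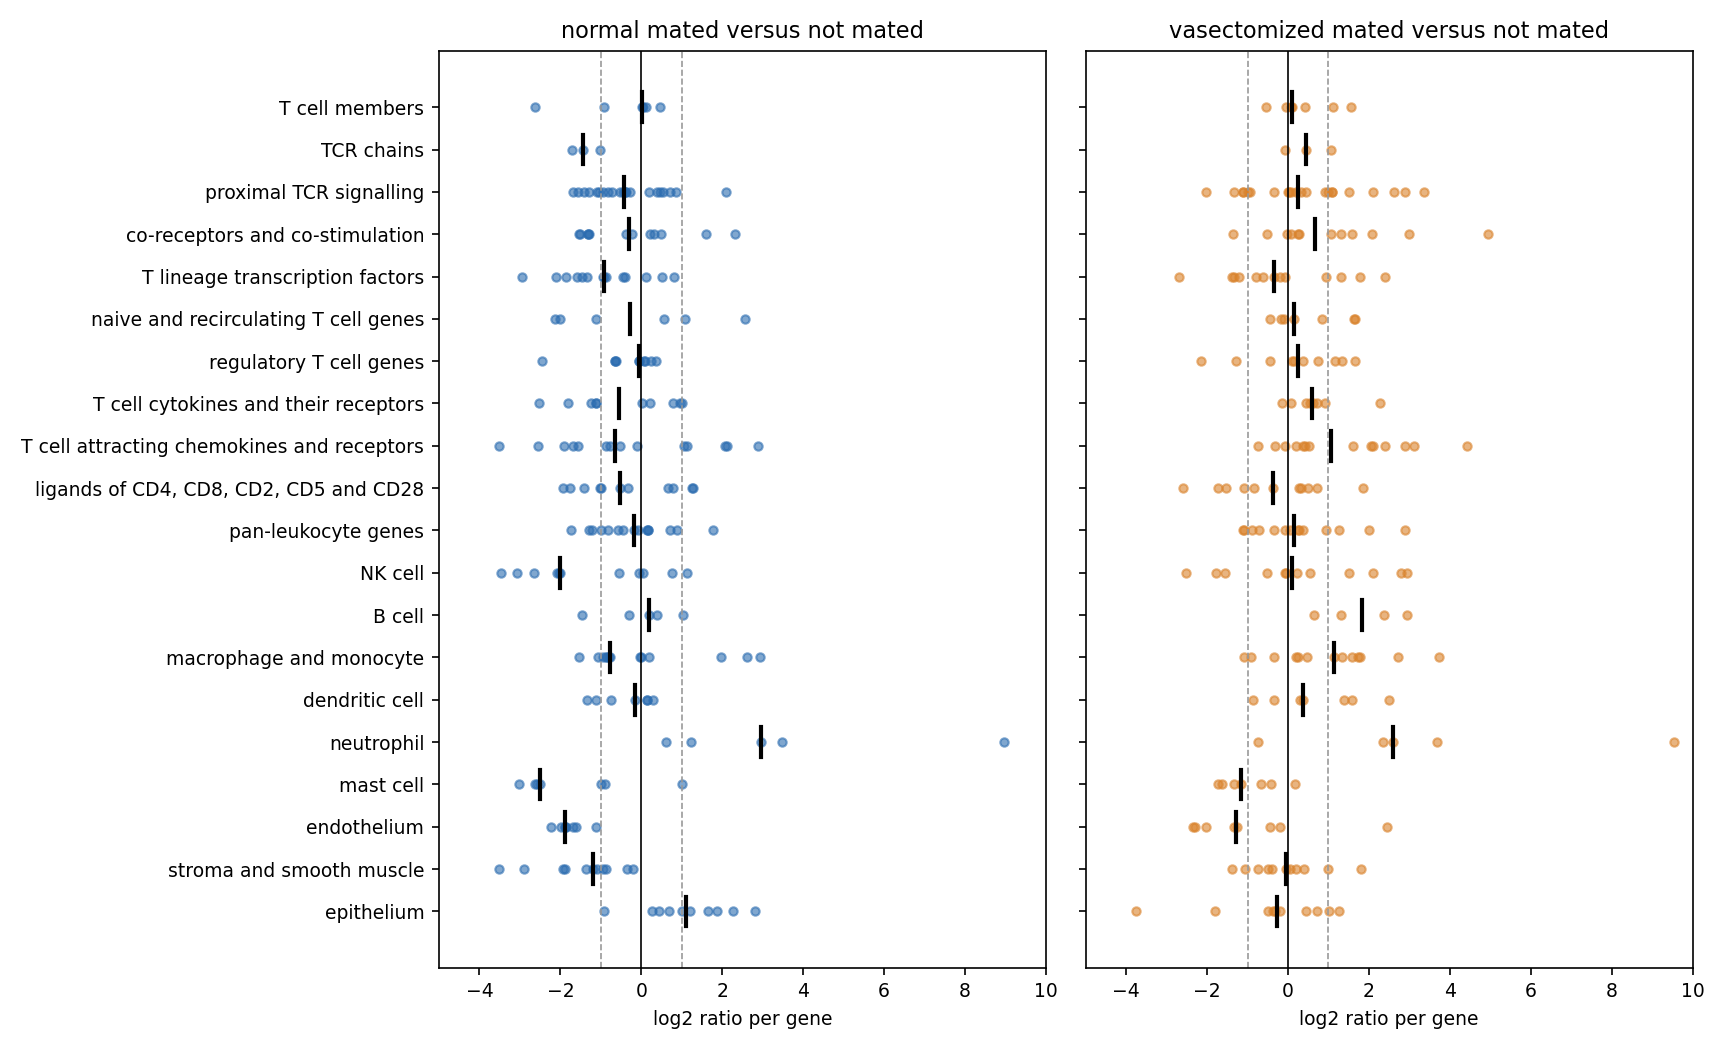
Log2 ratio to the not mated array (horizontal axis) of every gene measured on both arrays in each of the 20 lists (rows), after normal mating, left, and vasectomized mating, right; black bars are list medians, dashed lines mark 2-fold and bounds are not drawn. The T cell members have medians of 0.02 and 0.11, the receptor chains -1.43 and 0.43, the NK cell markers -2.01 and 0.09, and the neutrophil markers 2.97 and 2.60.

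As reported, the CD3 chains had unlike profiles over the 3 arrays. With normexp all 3 were highest in the vasectomized-mated pool, at 1.45 (Cd3d), 1.03 (Cd3e) and 0.52 (Cd3g) against the not mated pool and at -1.83, -0.89 and -1.25 for the normal-mated against the vasectomized-mated pool. With each gene's levels centred on their mean, Cd3d, Cd3g and Cd3e lay 0.917, 1.03 and 1.15 from the mean profile of the 3 chains (Euclidean distance, log2 units), and Cd247 and Lck, which were not part of that mean, lay at 0.925 and 0.955. Among the genes nearest to the mean profile, of 17201 measured on all arrays, were Dnph1, AK141415, Klf8 and Ddx23, at distances of 0.0130 to 0.0281. There were 42 genes within 0.1. With 3 arrays a profile has few distinguishing features, and nearness says nothing of function.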

How the data were processed

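Total RNA of 3 pools, each from 10 females, was hybridised to 3 arrays. The deposited intensity values are the authors' processed signals from Agilent Feature Extraction, linear, with the background removed per array and no scaling across arrays, per the file headers. The headers name version 10.5.1.1 and the submitters' processing notes version 9.5.3. The software's flags for outliers and for signal above background were used as deposited. Levels are log2 values derived from the deposited intensities: log2 of the signal minus log2 of the array's 75th percentile over non-control spots, outlier spots left out, spots of a probe averaged. A probe counts as well above background where most of its spots carry that flag.

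A gene takes its probe with the highest mean level, with preference for probes seen well above background somewhere. Where 1 of both arrays is well above background the ratio is a bound, and where neither is, no ratio was taken. Genes count as higher or lower at 2-fold. The median SD between spots of a probe was 0.0573, 0.0644 and 0.0541 for probes well above background on the not mated, vasectomized-mated and normal-mated arrays (189, 189 and 195 probes) and 0.242, 0.468 and 0.494 for the others. The number of arrays, 1 per state, limits the precision.

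Probes were named through the RefSeq gene table of GRCm38.p6: an accession named 22940, a current symbol 6654 and a synonym 3109. The file's name was kept for 8455, and the 16 member probes are taken by the name in the files. Coordinates of probes are in mm7, per the file headers. All 10 members are named. From each of the other 19 lists up to 4 genes with the largest measured ratios in a comparison are named, and others are said to be chosen after their values were seen. A few genes named by this rule are left out of the text. The members and lists were chosen with earlier results of these data known. The steps were tested on simulated data.

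The 3 comparisons were repeated under 7 alternatives planned at the outset (normexp with an offset of 50, quantile and cyclic loess normalization, another scaling, a stricter and no filter on dim probes, the mean over probes) and 1 added after seeing the data (another detection flag). R 4.3.3 with limma 3.58.1 and data.table (version 1.17.8) and Python 3.11.15 with numpy 2.4.6, pandas 2.3.3 and matplotlib 3.10.9 were used.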

Additional observations from a re-analysis of the deposited data

How the results depend on the processing

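With 1 array per state and single faint spots for most of the 10 genes, the counts depend on the processing; the cause was not tested unless stated. After normal mating, the 3 genes at least 2-fold lower became 0 with normexp, which changes the background model and adds an offset together, and 1 when bounds were left out, and lay between 2 and 4 under the others. After vasectomized mating, the 2 genes higher became 5 with normexp, 1 with scaling on probes well above background on all arrays and 1 with the mean over probes, while 1 gene (Cd8a, at -2.20) rather than 0 was lower without a filter on dim probes and with the detection flag added after seeing the data. In the normal against vasectomized comparison the count of 3 lower ranged from 2 to 4 and 0 were higher throughout. The median ratio after normal mating, 0.02, became -0.081 with that scaling, 0.20 with quantile, 0.24 with cyclic loess, -0.33 without a filter and -0.38 with the mean over probes. After vasectomized mating, 0.11 turned to -0.064 with that scaling and became 1.03 with normexp, 0.24 with quantile, 0.30 with cyclic loess and 0.26 without a filter or with the added flag. Between the mated pools, -0.97 became -0.59 with quantile and -0.44 with cyclic loess. Over all genes, normexp moved the median ratio from -0.06 to 0.02, from 0.18 to 0.42 and from -0.28 to -0.45 in the 3 comparisons, and the share of 2-fold genes that were higher from 42.7% to 59.5%, from 61.0% to 76.9% and from 34.5% to 24.8%. Cyclic loess put that share at 52.9% after normal mating. Of all genes compared, 4.72% were at least 2-fold lower after normal mating with normexp, against 13.2% as reported. After vasectomized mating 31.3% were higher with normexp, against 25.8% as reported. Without a filter 40.2% were lower in the normal-mated than in the vasectomized-mated pool, against 28.0% as reported. No paired analysis was possible because each state has 1 array.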
